A study of Mus musculus with 2 samples.

Results

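Windows of 1000 bp in which CpG methylation moved as a block between a control and a fasted mouse liver library are described here. A window entered when at least 5 of its cytosines carried 10 or more reads in both libraries, when the mean of its cytosine levels differed by at least 25 percentage points, and when at least 80% of those cytosines moved the same way. On chromosomes 1 to 19, 308 of 70943 measured windows met the rule, which is 0.434%. Of these, 150 (0.211%) were higher in the fasted library and 158 (0.223%) were lower. The windows were selected on the difference between these 2 libraries, so their differences, their directions and the agreement of their cytosines are descriptions and carry no test.

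Both libraries came from liver genomic DNA of CD-1 mice aged 12 weeks, an outbred stock. The control mice were untreated, with chow and water freely available, and the fasted mice went 12 hr without food. Each condition had 1 library, and the sources used here do not say how many animals or which liver cells it held. No spread between animals could be estimated, so a difference between diets cannot be told apart from a difference between individual mice, their alleles or their libraries.

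In mammals, methyl groups on DNA sit mostly on the cytosine of a CG dinucleotide (CpG), and the enzyme DNMT1 copies them to the new strand after replication, so that both strands of a CpG usually carry the same mark. Neighbouring CpGs tend to share their state, and active promoters rich in CpG are usually unmethylated. Reduced representation bisulfite sequencing reads the ends of restriction fragments. Here the enzymes were MspI, which cuts at CCGG, and TaqαI, which cuts at TCGA, so that a window holds 1 or a few short stretches of measured CpGs. A methylation level is the percent of reads at a cytosine that were read as methylated, and the level of a window is the mean over its cytosines.

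Shifted windows overlapped 27 promoters. Of those with at least 4 measured cytosines, Fv1, Egfem1, Gm13133 and Gm33728, all higher in the fasted library, are not printed. The sequences of the other 6 are printed first, because they show where the shifted CpGs lie in a gene's start. Each runs 5′ to 3′ along the gene's own strand, from 250 bp before to 50 bp after the annotated start of transcription, in RefSeq on GRCm38.p6, the assembly of mm10. Capitals mark CG dinucleotides with a cytosine measured in both libraries. The first 3 were higher in the fasted library and the last 3 lower.
Gm8773 promoter: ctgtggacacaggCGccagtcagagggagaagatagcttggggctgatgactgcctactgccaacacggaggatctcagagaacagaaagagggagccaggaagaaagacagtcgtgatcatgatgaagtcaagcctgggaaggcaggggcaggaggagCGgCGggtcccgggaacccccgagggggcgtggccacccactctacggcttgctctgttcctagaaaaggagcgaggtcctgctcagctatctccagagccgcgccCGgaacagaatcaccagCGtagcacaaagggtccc
Dnajb3 promoter: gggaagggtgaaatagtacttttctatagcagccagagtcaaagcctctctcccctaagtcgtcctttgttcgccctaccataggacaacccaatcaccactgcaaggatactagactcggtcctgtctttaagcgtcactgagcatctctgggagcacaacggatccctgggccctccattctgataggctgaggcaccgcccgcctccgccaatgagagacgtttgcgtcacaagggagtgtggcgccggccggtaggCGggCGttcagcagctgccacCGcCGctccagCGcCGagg
Elf3 promoter: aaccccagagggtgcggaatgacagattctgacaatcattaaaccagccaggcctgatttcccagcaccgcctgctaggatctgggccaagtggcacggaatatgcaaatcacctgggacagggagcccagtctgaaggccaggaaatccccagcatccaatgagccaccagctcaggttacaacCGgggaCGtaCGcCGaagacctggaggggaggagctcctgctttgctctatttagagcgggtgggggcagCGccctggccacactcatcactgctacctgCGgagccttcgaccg
Akr1b8 promoter: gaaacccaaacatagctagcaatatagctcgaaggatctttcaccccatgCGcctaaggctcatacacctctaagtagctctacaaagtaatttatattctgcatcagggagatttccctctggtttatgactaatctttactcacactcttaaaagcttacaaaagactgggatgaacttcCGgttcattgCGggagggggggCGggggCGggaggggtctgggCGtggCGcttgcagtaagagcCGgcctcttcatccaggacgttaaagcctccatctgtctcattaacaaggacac
Igsf23 promoter: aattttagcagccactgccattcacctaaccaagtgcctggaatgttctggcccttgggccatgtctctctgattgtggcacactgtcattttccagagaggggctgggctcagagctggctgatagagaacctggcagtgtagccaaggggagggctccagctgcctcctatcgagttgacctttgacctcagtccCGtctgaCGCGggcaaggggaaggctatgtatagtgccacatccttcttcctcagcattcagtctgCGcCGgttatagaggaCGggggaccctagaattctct
Krt8 promoter: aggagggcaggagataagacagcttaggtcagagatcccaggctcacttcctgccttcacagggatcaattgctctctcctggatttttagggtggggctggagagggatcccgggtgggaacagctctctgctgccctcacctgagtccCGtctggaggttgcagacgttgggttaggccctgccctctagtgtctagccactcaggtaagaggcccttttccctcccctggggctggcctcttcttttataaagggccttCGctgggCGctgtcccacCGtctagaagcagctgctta

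In their order the promoters lie at chr5:5573754-5574053 (plus strand), chr1:88205699-88205998 (minus), chr1:135258423-135258722 (minus), chr6:34353896-34354195 (plus), chr7:19950694-19950993 (minus) and chr15:102004293-102004592 (minus). Each holds at least 1 CCGG, and those of Gm8773, Dnajb3 and Akr1b8 hold 2. TCGA occurs once in those of Elf3, Akr1b8 and Igsf23. Both motifs read the same on either strand. Of 31396 autosomal promoters of this length in the same table, 53.5% hold CCGG and 22.1% hold TCGA.

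The Gm8773 promoter, at a predicted protein-coding gene, went from 6.48% in the control library to 84.9% in the fasted library, as the mean of 6 cytosines. Its 5 cytosines within 100 bp of the start of transcription read between 0% and 7.14% in the control library, against between 81.8% and 92.3% in the fasted one, on 13 to 45 reads each. The cytosine 237 bp before the start went from 22.7% to 67.9%. The libraries did not overlap at any of the 6 cytosines. The shifted window begins inside this promoter and moved less, from 31.6% to 69.4%, with 8 of its 10 cytosines higher and 2 lower.

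Dnajb3 encodes a DnaJ co-chaperone known from testis. Its 12 promoter cytosines had means of 40.7% and 66.5%, and they lie within the window at chr1:88205001-88206000, in which 25 of 25 cytosines were higher in the fasted library (42.7% to 73.6%). That window also lies inside the overlapping transcripts of the Ugt1a genes, which encode liver enzymes that conjugate bilirubin and drugs with glucuronic acid. Elf3, an Ets factor of epithelial cells, went from 10% to 40%. All 6 of its cytosines lie on the minus strand and had 10 reads in each library, so the same 10 reads may cover every position, and the 95% margin of the difference with those 10 reads was 35.6 points, wider than the difference. Its difference of 30.0 points was 2.37 with a minimum of 5 reads and 9.08 with the strands of each CpG merged.

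Akr1b8 encodes an aldo-keto reductase. The 7 cytosines in its shifted window, all on the minus strand, went from 54.1% to 12.2%, and they lie from 67 to 3 bp before the start of transcription. In the control library they read 27.3% to 72.7% and in the fasted library 0% to 27.3%. The remaining promoter cytosine, 199 bp before the start and outside that window, stood at 65.2% and 60.7%, so the shift did not extend over the whole promoter. Igsf23, named for its immunoglobulin domain, had such an edge too. There 5 cytosines within 30 bp after the start read 20% to 84.6% in the control library, against 0% to 13.3% in the fasted one, while 3 cytosines 43 to 52 bp before it read 5.26% or less in both. It falls outside the rule for named genes and was picked for its sequence. Krt8 encodes a keratin of simple epithelia, hepatocytes included. Its 4 promoter cytosines read 26.7% to 33.3% in the control library, against 0% to 11.1% in the fasted one, on 13 to 20 reads. The difference of its window, -25.4 points, was -12.9 with a minimum of 5 reads and -16.6 with strands merged, so the rule was not met there.

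**Figure D1:**
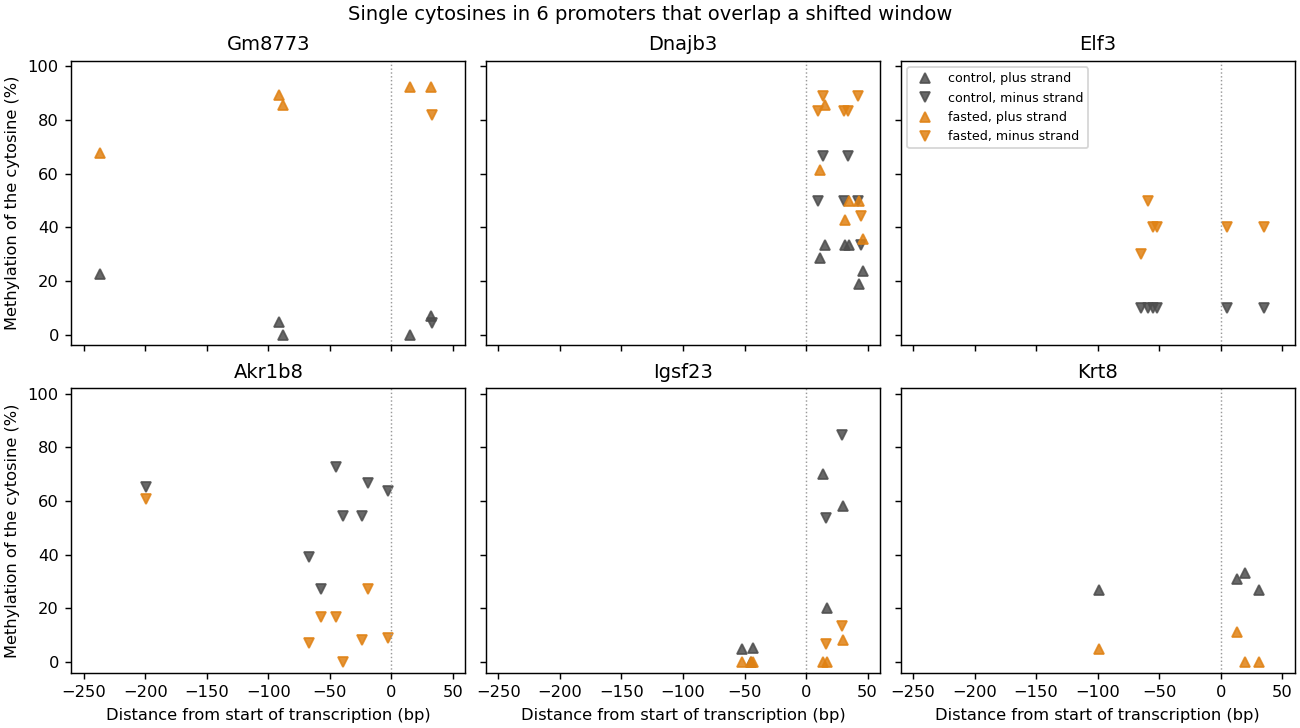
Methylation (%) of each cytosine measured in both libraries in 6 promoters, by distance from the start of transcription (bp); control is grey, fasted is orange, and triangles give the strand. In Gm8773 the libraries are far apart at every cytosine, in Akr1b8 the cytosine at 199 bp before the start stays near 60% in both, and in Elf3 every control cytosine sits at 10%.

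Shifts past 50 points were few. Of the 308 windows, 177 differed by 25 to 30 points, 103 by 30 to 40 and 28 by 40 or more, and 9 passed 50 points (5 higher, 4 lower). The median difference was 28.4 points among windows higher in the fasted library and -29.4 among those lower. Over all 70943 windows, the median absolute difference was 2.08 points and the median signed difference was near 0.

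The window with the greatest decrease lies in Gm3786, a pseudogene, at chr5:117294001-117295000. Its level went from 96.3% to 13.4%. Reads summed over cytosines gave 96.3% (95% exact Clopper-Pearson interval 92.8 to 98.4) and 14.6% (10.7 to 19.2). Such intervals count a read once per cytosine and are too narrow. By the highest number per strand there were 24 control and 32 fasted reads, with a 95% margin of the difference of 14.4 points. All 18 cytosines were lower, with 83.3% to 100% in the control library, against 0% to 26.3% in the fasted one, and both strands took part, by -90.3 and -75.5 points. Rhbdf1, which encodes iRhom1, an inactive member of the rhomboid protease family, held the next, at chr11:32215001-32216000. All 7 of its cytosines were at 77.8% or more in the control library, against 41.4% or less in the fasted one (94.6% to 21.8%).

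Another window of Rhbdf1, about the far end of the neighbouring gene Snrnp25 (a component of the minor spliceosome), was also lower, from 85.6% to 47.9%. Both of the next lie on chromosome 5. A window between genes, 14644 bp from the lncRNA gene Gm26808, went from 72.0% to 13.6% over 16 cytosines, and one in the lncRNA gene Gm42011 went from 75.3% to 17.1% over 7. In neither did any control cytosine read as low as any fasted one.

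Ppp1r2-ps3 on chromosome 19, a pseudogene of the phosphatase inhibitor Ppp1r2, went from 49.9% to 0%. That zero rests on 50 reads at 5 minus-strand cytosines, or on 10 reads at any one of them, which allows a level of up to 30.0% by the limit of 3 counts. Cracd went from 71.6% to 25.2% over 6 cytosines, whose levels overlapped between the libraries.

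The greatest increase lay between genes on chromosome 17, at chr17:40372001-40373000, 52794 bp from Crisp1, which encodes a secreted protein of the epididymis. Its level went from 21% to 89.6% over 13 cytosines. Reads summed over these cytosines gave 21.5% (17.8 to 25.5) and 88.5% (83.2 to 92.6). The plus strand was higher by 72.7 points and the minus strand by 66.8. Control cytosines read 5.26% to 55.6% and fasted cytosines 80% to 100%, with no overlap. Reads differed too, at a median of 36.0 per cytosine in the control library, against 15 in the fasted one.

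The next were a window overlapping the glycine tRNA gene n-TGgcc4 (19.8% to 75.5%, 7 cytosines) and a window 26499 bp from the pseudogene Gm46399 on chromosome 13 (3.60% to 56.0%, 16 cytosines). The others had 5 or 6 cytosines. Abr went from 7.84% to 60.0% over 6 minus-strand cytosines with 10 fasted reads each. A window on chromosome 13 with the snoRNA gene LOC115488223 as nearest gene went from 49.2% to 100% over 5 cytosines, where every fasted read was methylated. That difference of 50.8 points was 9.16 with a minimum of 5 reads and 12.3 with strands merged, so the rule was not met there. Pde1a, which encodes a calmodulin-dependent phosphodiesterase, went from 20.4% to 70.1% over 6. The cytosine levels overlapped between the libraries at Pde1a alone of these 5.

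**Figure D2:**
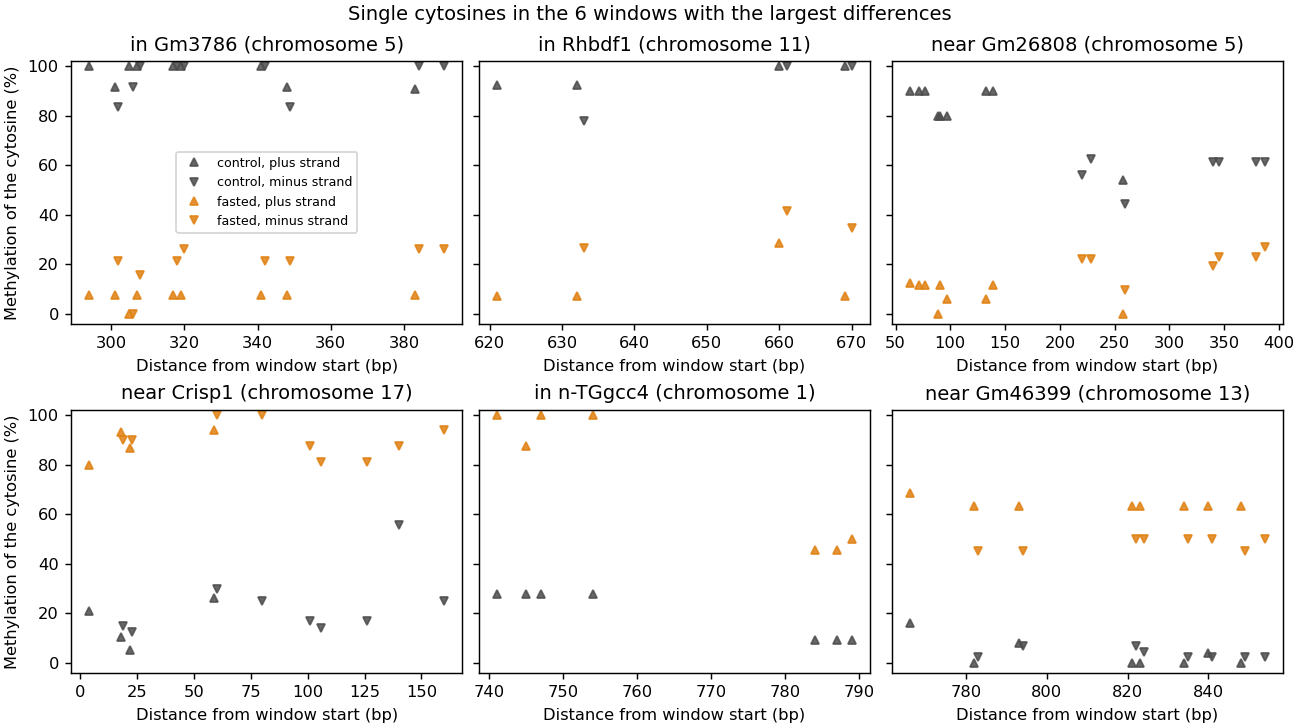
Methylation (%) of each measured cytosine in the 3 windows with the greatest decrease (top) and the greatest increase (bottom), by distance from the window's start (bp); control is grey, fasted is orange, and triangles give the strand. In all 6 windows every cytosine of 1 library lies above every cytosine of the other.

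Some windows held 30 or more measured cytosines. Niban3, on chromosome 8, had 89 measured cytosines, the most of any shifted window, and 84 of them were lower (60.4% to 31.8%), by -28.9 points on the plus strand and -28.4 on the minus. In Tescl, a tescalcin-like gene, 34 of 35 cytosines were lower (53.7% to 9.95%). In Lrp8, which encodes a receptor for apolipoprotein E and reelin, 29 of 31 were lower (57.4% to 32.1%), but by -31.9 points on the minus strand and -9.38 on the plus.

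Among windows higher in the fasted library, those with the most cytosines were in Proser2 (31 of 34 higher, 44.5% to 74.4%), in the pseudogene Gm16437 (30 of 32, 41.4% to 67.1%) and at Dnajb3, given above. The cytosines of the 2 libraries overlapped in level in each of these 6 windows. Over all 308 windows, 72 had no such overlap. The rule itself favours such separation, and its share among the other windows was not counted.

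The shifts mostly ran between intermediate and higher or lower levels, and seldom from unmethylated to methylated. In 197 of the 308 windows (64.0%), at least 1 library stood at 40% to 60%, against 20.1% of the other windows whose mean level over both libraries (12.5% to 87.5%) permits a 25-point difference. The rule itself favours such levels. The most frequent moves were from the class of 40 to 60% to that of 75 to 90% (50 windows), from 75 to 90% to 40 to 60% (37), from 60 to 75% to 25 to 40% (29) and from 40 to 60% to 10 to 25% (22). Only 5 windows went between 25% or less and 75% or more, and 22 had a library below 10%.

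**Figure D3:**
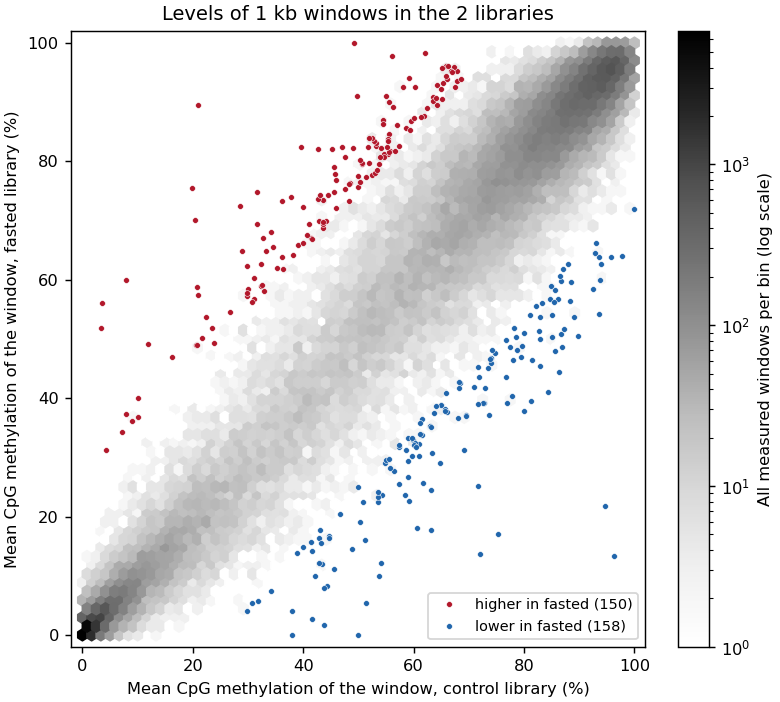
Mean CpG methylation (%) of each 1 kb window in the control (horizontal) and fasted (vertical) library, with all 70943 measured windows as grey bins on a log scale, the 150 higher windows in red and the 158 lower in blue. Most shifted windows lie near the 25-point limit and at intermediate levels, and the few far from it include Gm3786 and Rhbdf1 at the lower right.

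The mean level sets how often a window could qualify. Of the 27177 windows at 12.5% to 87.5%, 1.13% met the rule. The share was 2.84% at mean levels of 40% to 60%, 0.441% at 12.5% to 25% and 0.310% at 75% to 87.5%. It ran from 0.918% to 1.30% over classes of cytosine number and from 0.821% to 1.52% over classes of read depth, with the highest values at 5 or 6 cytosines and at 10 to under 13 reads.

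Measured stretches were short. Shifted windows had a median of 6 cytosines (5 to 89), spread over a median of 150 bp, against 7 cytosines and 186 bp in the other windows that could have met the rule. Together they held 2579 cytosines at 1876 CpGs, of which 2451 moved the way of their window and 100 the other way. Every cytosine moved one way in 208 windows. In 179 windows the cytosines formed a single run with no gap over 100 bp.

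One read covers several of these cytosines, so they do not repeat the measurement. Taking the highest read number of each run and strand in place of the sum over cytosines, a window had a median of 44.0 control reads and 50 fasted reads, and the 95% margin of its difference had a median of 17.9 points (7.44 to 40.5). That margin reached 0 in 23 windows. It is a normal approximation, to which a library at 0% or 100% adds nothing, so it can be too small. Some read numbers double within a run, as from 32 to 64 in the fasted library at Mmp24. With every read number halved, the median margin was 25.3 points and it reached 0 in 95 windows. The choice of differences of at least 25 points lowers both counts, so they describe the margins and are no test. In 26 windows every cytosine had the same number of reads within each library, and in 7 of these the number was 10.

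Depth differed between the libraries in some shifted windows. The median reads differed by 2-fold or more in 16 of them (5.19%), against 2.09% of the other windows that could have met the rule. Among the higher windows it was 12 of 150, 8 of these deeper in the control library, and among the lower it was 4 of 158. A window with a cytosine at 10 or more reads in 1 library and none in the other occurred at 5.19% against 2.08%. The part of depth in these shifts was not tested.

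The opposite strand gave a reading that the choice of window had not used. When the rule was applied to plus-strand cytosines alone, 185 windows were found, and 111 had at least 5 cytosines on the minus strand. The plus strand differed by a median of 29.8 points there, and the minus strand by 15.2 points in the same direction (quartiles 6.18 to 26.6). It went the same way in 99 of the 111, reached 25 points in 29, and stayed under 5 points or went the other way in 24. With the strands exchanged, 108 windows had a median of 29 points on the chosen strand and 13.1 on the other, which went the same way in 92.

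The opposite strand thus kept 51.2% and 45.2% of the median difference. Its reads come from other strands of DNA, but from the same livers and libraries, so this describes the precision within the libraries and says nothing of other mice. Windows chosen on the plus strand had medians on the minus strand of 16 points where higher and -14.1 where lower. Windows chosen on the minus strand had 9.27 and -14.1 points on the plus strand.

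**Figure D4:**
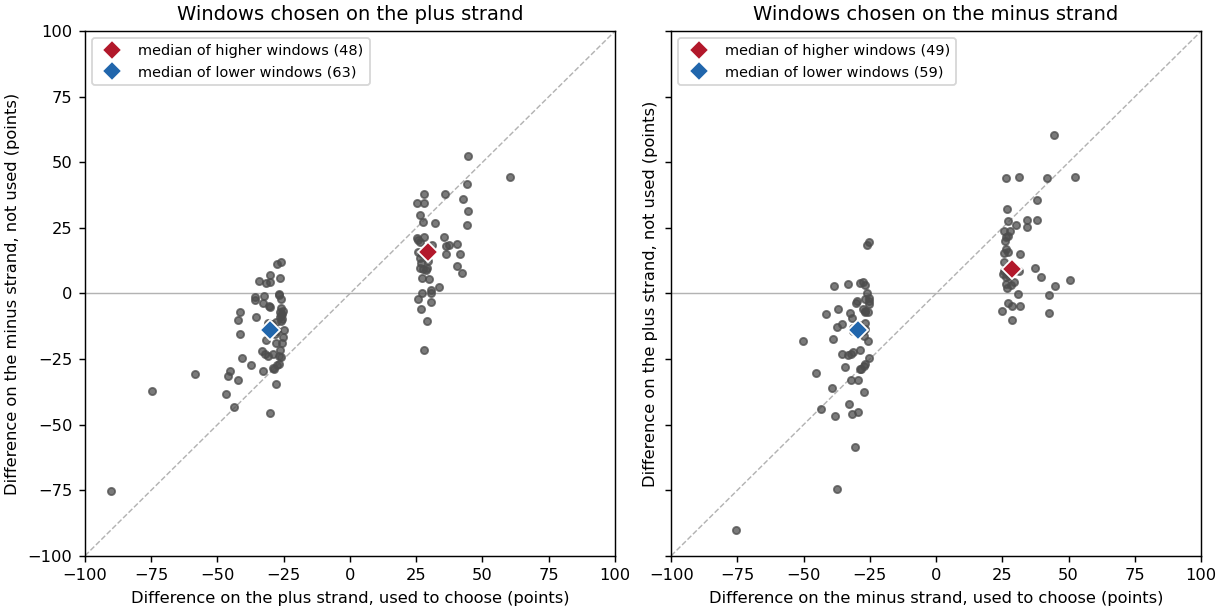
Fasted minus control difference (percentage points) on the strand used to choose a window (horizontal) and on the strand not used (vertical), 1 point per window with at least 5 cytosines on each; diamonds are medians of higher (red) and lower (blue) windows. Most points lie on the same side of 0 on both axes but closer to 0 on the strand not used, with medians of 16 and -14.1 points at left and 9.27 and -14.1 at right.

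Of all 308 windows, 245 had cytosines on both strands and in 240 of these both strands moved the same way. At least 5 cytosines on each strand were present in 54 windows, and 29 of these passed 25 points on both strands. The rule used both strands of these windows together and so favours such agreement, which is no separate support. Cytosines with 5 to 9 reads in a library, which the rule had left out, were present in 204 windows. They moved the window's way in 146 and the opposite way in 56, with a mean of 14.9 points over 975 cytosines. The same reads may cover these cytosines and those the rule used, so they are no separate measurement.

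Differences were smaller past the window, which had been chosen for its own difference, so the size of the fall is not measured. In the first 500 bp on either side, the mean difference in the window's own direction was 9.46 points, over 118 windows with a measured cytosine there, and the median was 4.81. At 500 to 1000 bp the mean was 2.84 points. Around the other windows that could have met the rule, whose own median absolute difference was 4.80 points, it was 0.979 in the first 500 bp. Among directly neighbouring windows with at least 3 cytosines, 16 of 113 moved by 25 points or more the same way, 69 stayed within 10 points and 9 moved by 10 or more the opposite way. Such neighbours include the 12 shifted windows of the adjacent pairs given below, each counted from its partner.

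**Figure D5:**
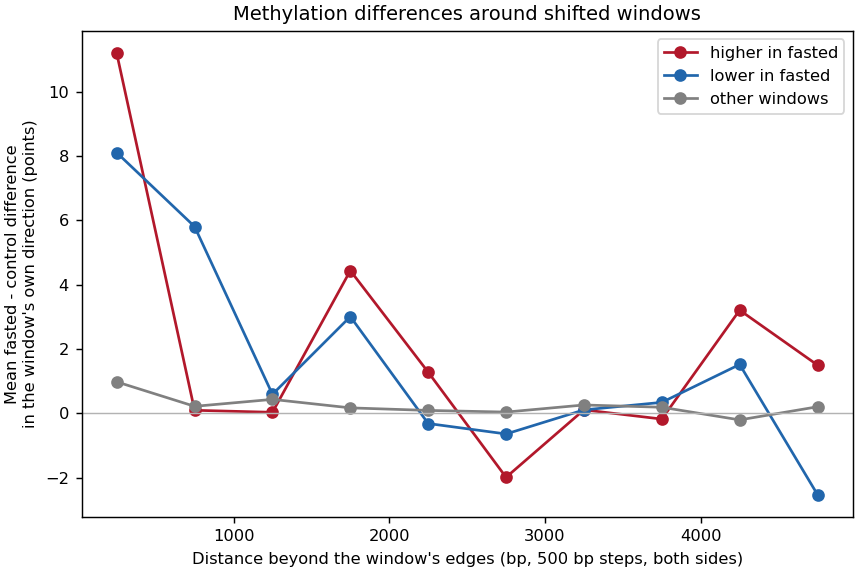
Mean fasted minus control difference (points, in the direction of the central window) of cytosines outside the window by distance from its edges in 500 bp steps, for higher, lower and other windows. The higher windows start at 11.2 points and the lower at 8.11 and both are under 1 point at 1000 to 1500 bp; later steps rest on 20 to 42 windows each and vary between -2.53 and 4.44.

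Adjacent windows were both shifted in 6 places, 12 windows in all, and both windows of each pair moved the same way. Where the far end of Mmp24, a membrane-bound matrix metalloproteinase, meets the start of BC029722, the windows at chr2:155818001-155819000 and chr2:155819001-155820000 went from 37.9% to 0% and from 43.7% to 1.67%. They held 15 and 11 cytosines, all lower, with control levels of 21.1% to 53.3% and fasted levels of 0% to 4.26%, so the libraries were apart at every cytosine. The zero rests on 667 read counts over the cytosines, or 118 by the highest number per strand, which allows up to 2.54%. Those read numbers double from 32 to 64 and from 27 to 54 within the window, and with 118 halved to 59 the limit is 5.08%. The cytosines of both windows form a single stretch from position 155818921 to 155819046 of chromosome 2.

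In Zfp64, which encodes a zinc finger protein, adjoining windows went from 77.9% to 40.3% and from 78.7% to 48.1%, the latter with 22 of 22 cytosines lower. Arl9, a small GTPase of the ADP-ribosylation factor family, had 2 lower windows (93.9% to 62.6% and 87.2% to 51.7%). Both overlap the annotated gene, but lie before its promoter's start of transcription at position 77004055 of chromosome 5. The 3 promoter cytosines measured nearer to that start stood at 100% in the control library and at 86.4% to 95.5% in the fasted library. The lncRNA gene Gm42011 had the window given above and the next (68.0% to 36.7%). The last 2 pairs were at tRNA genes. Within 10000 bp of another shifted window there were 20 windows, and for 18 of these the nearest one moved the same way. These include the 12 windows of the adjacent pairs, each counted from its partner. Within 100000 bp there were 28 windows, and for 20 of these the nearest one moved the same way.

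Of the shifted windows, 6 overlapped a transfer RNA gene, a class singled out after its values were seen. The measured cytosines of such a window need not lie in the gene itself. Of 144 measured windows over tRNA genes, 119 had a mean level under 12.5% and could not meet the rule. Of the 25 that could, 6 did (24.0%), against 1.13% of all windows with such levels. The 25 had a median absolute difference of 4.72 points, 12 were higher and 13 lower, so most stood close to 0 while a few were far apart.

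At the glycine tRNA gene n-TGgcc4, 2 adjoining windows went from 19.8% to 75.5% and from 31.7% to 74.8%. This gene crosses the edge they share, and their measured cytosines lie at positions 171044741 to 171044789 and 171045152 to 171045171. At the neighbouring tyrosine tRNA genes n-TYgta4 and n-TYgta5, windows went from 54.2% to 23.7% and from 61.5% to 33.7%, by -40.3 and -36.1 points on the plus strand and by -20.7 and -19.5 on the minus. A window at the leucine tRNA gene n-TLtaa2 went from 71.7% to 45.3% on 5 minus-strand cytosines. At the valine tRNA gene n-TVcac10 the level went from 7.20% to 34.3%, by 29.2 and 25 points on the strands.

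All cytosines of these 6 windows moved one way. Many tRNA genes have near-identical copies, so the aligner's placement of reads could mix loci, and its part was not tested. Median reads were 36.0 and 16 in the first n-TGgcc4 window and 12.0 to 26.5 in the other 5.

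By position, 31 windows (10.1%) lay at a start of transcription (1000 bp before to 500 bp after), 164 (53.2%) elsewhere in a gene and 113 (36.7%) between genes. The other windows that could have met the rule had 8.31%, 57.0% and 34.7%, while over all measured windows starts made up 24.8%. The share at starts was thus nearer to that of windows at like levels than to that of all windows. Of the higher windows 44.7% lay between genes, and of the lower 29.1%. Protein-coding genes overlapped 52.9% of the shifted windows and lncRNA genes 9.74%, against 53.6% and 12.5% of the others.

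Ends of protein-coding genes (1000 bp outside to 500 bp inside) held 38 of the windows (12.3%), against 9.78% of the other windows that could have met the rule and 26.7% of all measured windows. Those with the greatest increase included the start shared by Miip and Fv1 (3.37% to 51.8% over the window, 10 of 10 cytosines higher), Gm8773, Erich3 (36.2% to 73.3%), Eng (32.7% to 67.0%), Egfem1 (16.3% to 46.9%), Cd55b (53.1% to 83.2%), Elf3 and Tmem163 (20.5% to 49%). Eng encodes endoglin, a TGF-β co-receptor of endothelial cells, and all 9 of its cytosines were higher. Cd55b encodes a form of the complement regulator CD55. The 12 cytosines of the Fv1 promoter, most of which lie before the window, went from 2.12% to 18.2%. With a minimum of 5 reads the differences at Cd55b and Tmem163 were 23.3 and 19.7 points, under the limit.

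Those with the greatest decrease included Tescl, BC029722, Akr1b8, Rhbdf1 and Snrnp25, Zfp64 and Arl9, given above, with Bin2 (86.7% to 50.9%), Paxbp1 (69.4% to 37.2%) and Tlk2, a chromatin assembly kinase (58.9% to 29.3%, a difference of -23.9 points with a minimum of 5 reads). At the start of Nodal, a TGF-β family ligand of the early embryo, 28 of 28 cytosines were lower (44.6% to 16.7%). Nodal falls outside the naming rule and was picked after its values were seen.

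Genes of the fasting response held 2 shifted windows. The list of these genes and the lists that follow were chosen with earlier results of these data known. Over 222 windows at or within 5000 bp of 44 genes of fasting and glucose metabolism, 2 met the rule (0.901%, against 0.434% of all measured windows), and the median difference was -0.253 points. Acacb, which encodes the acetyl-CoA carboxylase that restrains fatty acid oxidation, held a higher window (45.9% to 76.9%, 5 of 5 cytosines). A window 2194 bp from Pfkl, the liver phosphofructokinase of glycolysis, was lower (86.7% to 59.8%, 5 of 6). With a minimum of 5 reads these differences of 31 and -26.9 points were 12.9 and -19.5, and neither window met the rule. With 2 windows in opposite directions, the list gave no common movement.

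Cell type lists held 4 shifted windows. Hepatocyte genes had 1 of 95 windows (1.05%, Krt8), endothelial and stellate cell markers 2 of 72 (2.78%: Eng, higher, and a window 1604 bp from the VEGF receptor gene Flt1, from 95.7% to 63.8%), and immune markers 1 of 33 (3.03%, the mast cell tryptase Tpsg1, from 56.5% to 27.7%). These shares stand beside 0.434% of all measured windows and rest on 1 or 2 windows each. How many windows at each list had a mean level that permits the difference was not counted. With lists chosen after earlier results were known, the shares are no sign of enrichment. The Flt1 difference of -31.9 points was -18.2 with a minimum of 5 reads. Median differences over the 3 lists were -0.249, -0.701 and 0.121 points. Methylation at these genes gives no amount of any cell type, so the mix of cells in each liver sample was not measured, and its part in the shifts was not tested.

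Germline genes had 1 of 49 windows (2.04%, Dnajb3), and the 192 windows at imprinted genes, 136 at cytochrome P450 genes and 77 at protocadherin genes had none. Olfactory and vomeronasal receptor genes had 1 of 185 (0.541%, Vmn2r1, 66.0% to 37.7%). Zinc finger genes named Zfp had 5 of 1072 (0.466%): the Zfp64 pair, Zfp512 (62.0% to 98.3%), Zfp536 (23.4% to 51.8%) and a window 2101 bp from Zfp157 (42.9% to 12.2%, or -21.6 points with a minimum of 5 reads). Predicted genes had 72 of 17465 (0.412%), 23 higher and 49 lower, near the 0.434% over all windows.

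Shifted windows occurred on each of the 19 chromosomes, from 0.234% of the windows of chromosome 9 to 0.618% of those of chromosome 15. Chromosome 1 had 19 higher and 4 lower, and chromosomes 5 and 2 had 11 higher each with 19 and 18 lower. Apart from the adjacent sets and Rhbdf1, windows shared a gene in Pax7, a muscle stem cell factor (55.1% to 82.5% and 23.8% to 49.4%), and in Ksr1, a scaffold of Ras signalling, where one went from 71.9% to 43.5% and the other from 40% to 72.3%. Both genes were named after their values were seen.

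At the limit of the rule, the windows just inside included Muc2, which encodes the intestinal mucin (50% to 25%). Just outside were Slc35b4 (-24.97 points), Tbx5 (24.96) and Nr2f6 (-24.89). Another 462 windows of 20 to 25 points met the condition on shared direction, and 44 windows past 25 points did not. The limit thus cuts through a continuous range of values.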

How the data were processed

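DNA methylation was measured by reduced representation bisulfite sequencing in 1 control and 1 fasted liver library. Per the submitters' processing notes, the tools were bcl2fastq 1.8.4 and Bismark 0.14.3 with mm10 as build. How reads were trimmed, aligned and freed of duplicates is not given in the sources used here. The deposited files hold, per CpG cytosine, a text field of methylated and total read counts and a score, which the authors set to 1000 times the methylated fraction (differences of at most 0.5). Levels here come from the deposited read counts, with no normalization.

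The control library listed 4111027 cytosines with 49253627 reads (median 8) and the fasted library 4110421 with 51276705 (median 9). On the autosomes, 1603296 cytosines had 10 or more reads in both. Intervals are exact Clopper-Pearson at 95% on reads summed over cytosines. They count a read once per cytosine, so they are too narrow. PCR copies cannot be told from separate molecules here, so intervals and limits cover counting error only. The 95% margins of a difference are normal approximations that use the highest read numbers of each run and strand. Among cytosines at levels of 20% to 80% with 30 to 49 reads, methylated and total reads were both even at 57.8% (control) and 54.3% (fasted), and in the shifted windows, at any depth, at 35.4% and 37.2%. Whether reads were counted in pairs could not be settled, and where they were, 10 reads stand for 5. Halving read numbers was tried after seeing the data.

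Samples were grouped by title. The windows, gene lists and alternatives were chosen with earlier results of these data known. No test was run, since the rule uses the only contrast and each group has 1 library. Named windows are the 6 with the largest change and the 3 with most cytosines in each direction, adjacent sets, the 10 largest per direction at protein-coding gene ends, those within 5000 bp of listed genes, and those nearest the limit. Genes and promoters came from RefSeq tables of GRCm38.p6. All 213954 measured cytosines in promoters fell on a C of the matching strand. Exons, introns and repeats were not analysed here. Scripts ran in Python 3.11.15 with numpy 2.4.6, scipy 1.17.1, pandas 2.3.3 and matplotlib 3.10.9, and were tested on simulated data. Alternatives changed the coverage minimum and limit, cytosine number, difference, share, window size and position, strand use, read weighting and chromosomes.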

Additional observations from a re-analysis of the deposited data

How the results depend on the processing

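The number of windows that met the rule, 150 higher and 158 lower, depended on its limits. With at least 5 reads it was 398 and 364, with 20 reads 26 and 31. At least 3 cytosines gave 526 and 494, and 10 gave 30 and 44. A difference of 20 points gave 393 and 377, and of 50 points 5 and 4. With 100% of cytosines one way it was 103 and 105, and with strands merged 105 and 90. Plus-strand cytosines alone gave 81 and 104, and minus-strand cytosines alone 98 and 92.

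The median on the strand not used in choosing went from 15.2 to 8.81 points with 5 reads for windows chosen on the plus strand, and from 13.1 to 19.8 with 20 reads for those chosen on the minus strand. The cause was not tested. Moving window starts by 500 bp gave 155 and 162, and 241 of the 308 windows were found again. With a 5-read minimum 189 of the 308 met the rule, and with 20 reads 29 did. With the strands of each CpG merged, 119 of the 308 met it, so most were not found again. Plus-strand cytosines alone gave back 93 of the 308, and minus-strand cytosines alone 90. How many of the rest had too few cytosines or CpGs in these settings was not counted. None of the 66 named windows turned direction under 7 settings (5 or 20 reads, a coverage limit, summed reads, merged strands, either strand alone), where each could be measured. Named windows that moved by more than their counting error were 11 of 66 with 5 reads, 9 of 66 with merged strands, 2 of 66 with summed reads, 14 of 56 on the plus strand, 10 of 48 on the minus strand and 3 of 9 with 20 reads. That counting error came from reads summed over cytosines, so it is too small. Named windows under 25 points were 19 of 66 with 5 reads and 19 with merged strands. With read numbers halved, the 95% margin reached 0 in 95 windows instead of 23. No paired analysis was possible because each group has 1 library and no test was run. Leaving out a replicate would leave no comparison. Median depth near 10 reads limits the precision of single cytosines.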

Other observations

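Outside the autosomes, the same rule found 3 of 894 windows on chromosome X and 2 of 39 on chromosome Y. On the autosomes it found 308 of 70943 (0.434%). The count on chromosome Y rests on too few measured windows for a rate to be compared. In Bcor, a corepressor of BCL6 on chromosome X, both shifted windows were higher in the fasted library, from 44.0% to 71.2% and from 66.7% to 96.9%. The ribosomal protein pseudogene Rps2-ps13 on chromosome X went from 79.6% to 39.3%, with 13 of 13 cytosines lower. On chromosome Y, a window in Gm2098 went from 56.7% to 82.1% and one 25242 bp from Gm28504 from 48.0% to 85.7%. Unplaced sequences had none in 49 windows. The spread between mice was not measured for any of these values.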
